A study of Arabidopsis thaliana with 48 samples.

Results

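Wild-type Arabidopsis thaliana seedlings of the Col-0 ecotype that had spent 1.5 h in excess light (EL) were compared with seedlings kept in growth light (CT). The comparison rested on the 3 libraries labelled WT and EL and the 3 labelled WT and CT, 6 of the 48 libraries in the study, chosen by their treatment and genotype labels. Light was 50 µmol m-2 s-1 in CT and 700 µmol m-2 s-1 in EL. Both groups were grown for 6 days on salt-free plates, both stood at 21 °C during the treatment, and each library was made from whole seedlings of a set of about 125 to 150, so roots, hypocotyls and leaves were pooled. The study as a whole set heat (HS, 33 °C), salt (S, 50 mM NaCl), excess light and their combinations side by side. It did so in wild type and in seedlings labelled rap2.3, a T-DNA insertion line of the ethylene response factor gene RAP2.3. The comparison described here is that of excess light at a labelled 21 °C without salt. RNA was sequenced as paired reads, and expression is given as FPKM, a fragment count corrected for the length of the transcript and the size of the library.

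The 6 libraries summed to between 775361 and 801670 FPKM, and between 22148 and 22818 loci were above 0 in each. Replicates of a group correlated at Pearson's r of 0.9506 to 0.9747 on the log2(FPKM + 1) scale. The shoot markers RBCS1A and the LHCB1 genes were among the most abundant transcripts, root markers were present in every library (their summed level was 1750 to 2109 FPKM in CT), and 3 seed storage genes summed to between 0.304 and 56.3 FPKM, the highest value being CT replicate 3. No read totals are given with FPKM, so the counting error behind a value is unknown, and low values are the least certain.

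As background, light beyond what photosynthesis can use leaves chlorophyll in an excited state, and the surplus drives formation of reactive oxygen in the chloroplast. Plants answer by dissipating energy as heat, by making antioxidants, chaperones and light-screening flavonoids, and by cutting back the light-harvesting antenna. Several of these programmes are controlled at the transcript level within the hour, through the photoreceptor pathway that acts by the transcription factor HY5, through signals that leave the chloroplast, and through heat shock factors.

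Of 20744 genes tested, 3672 differed between EL and CT, which is 17.7% (limma's moderated test with Benjamini-Hochberg adjustment, adjusted p under 0.05). The higher genes numbered 2074, or 10% of those tested, and the lower genes 1598, or 7.70%. Fitting the 6 libraries alone called 1047 genes higher and 556 lower. The lower count was 895 without CT replicate 1, 1048 without CT replicate 3 and 966 without EL replicate 3, and without EL replicate 1 the split was 1791 higher and 1775 lower. Large changes were mostly increases: 718 genes rose and 181 fell by at least 2-fold, together 4.33% of those tested, and 116 rose and 6 fell by at least 4-fold. Fold changes are differences of log2(FPKM + 1), a scale that compresses the change of genes with low values. The median difference over all tested genes was -0.002, and the 3 EL libraries lay wholly above the 3 CT libraries for 16.1% of tested genes and wholly below them for 15.1%.

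**Figure D1:**
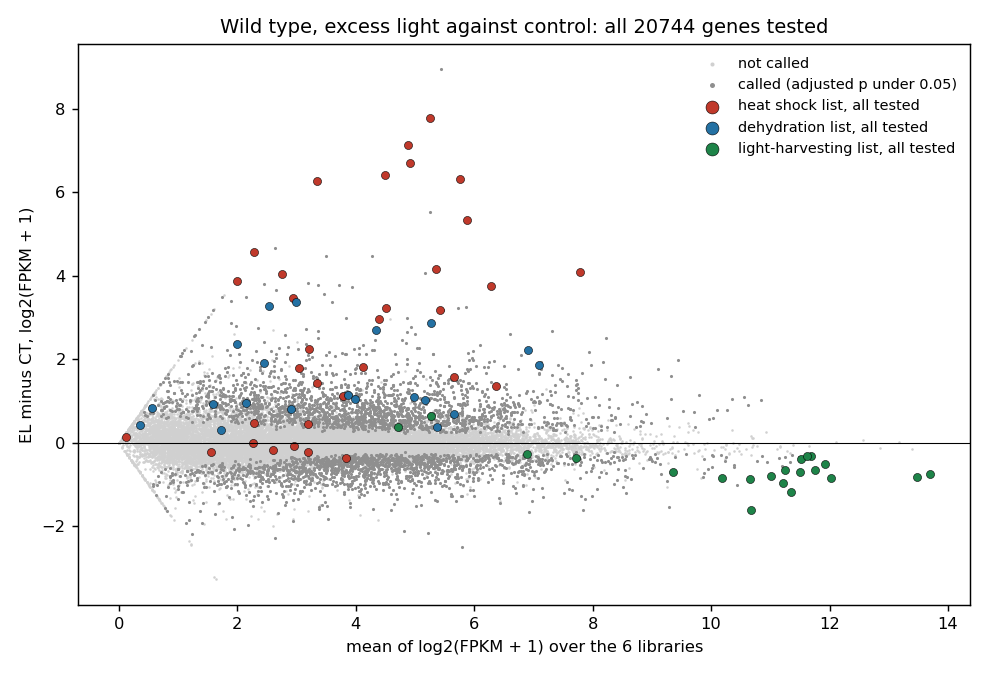
EL minus CT difference (vertical axis, log2(FPKM + 1)) against the mean level over the 6 libraries (horizontal axis, log2(FPKM + 1)) for all tested genes; each point is a gene, and every tested member of 3 gene lists is coloured. Heat shock genes reach differences of up to 7.78, while light-harvesting genes lie at the highest levels and mostly between 0 and -1.60.

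The largest increases belonged to small heat shock proteins, which hold unfolding proteins in a refoldable state. HSP17.6II (AT5G12020), a cytosolic class II member, stood at 4.51, 1.07 and 0.502 FPKM in CT replicates 1 to 3 and at 244, 482 and 1522 FPKM in the EL replicates. The groups did not overlap, and the log2 difference was 7.78 ± 0.86 (SE from the fit of all 24 wild-type libraries, n = 3 per group; limma adjusted p = 5.01e-06). AT1G53540, an HSP20-like chaperone, went from 2.61, 0.974 and 1.13 FPKM to 99.4, 318 and 1321 FPKM, a difference of 7.14 ± 0.99 (limma adjusted p = 5.34e-05). HSP17.6A (AT5G12030) went from 2.15, 1.51 and 0.835 FPKM to 51.8, 179 and 923 FPKM, a difference of 6.40 ± 0.84. In each of these genes EL replicate 3 was the highest library and EL replicate 1 the lowest.

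Of the 12 genes named for the largest increases, 9 are on the heat shock list or annotated as HSP20-like chaperones. Besides the genes above these are HSP17.4 (AT3G46230), with a difference of 6.70, AT2G29500, with 6.31, HSP23.6-MITO (AT4G25200), the mitochondrial small heat shock protein, with 6.26, AT1G07400, with 5.53, AT5G48570, an FKBP-type peptidyl-prolyl isomerase, with 5.34, and ATHSP22.0 (AT4G10250). ATHSP22.0 is listed at 0 in all 3 CT libraries and stood at 3.25, 25.4 and 118 FPKM in EL, so no fold is given for it. The named gene with the largest difference of all, AT3G07365 (8.93 ± 0.93), is annotated as a non-coding RNA that lies wholly within exons of HSP17.4 on the other strand, and 62.6% of HSP17.4 exon length is shared with it. Whether the counting used strand is not given in the sources used here, so reads of that pair cannot be told apart. DIP2 (AT5G03210), annotated as an E3 ubiquitin-protein ligase, and AT5G54165, annotated as an Avr9/Cf-9 rapidly elicited protein, complete the 12. DIP2 was even across the EL replicates, at 24.3, 27.9 and 40.7 FPKM against 0, 0.147 and 0.648 FPKM in CT.

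The promoters of AT1G53540 and HSP17.6A are shown because both genes rose by more than 6 log2 units and carry paired heat shock elements, the inverted GAA repeats that heat shock factors bind. The windows run from 250 bases before to 50 bases after the annotated gene start (RefSeq, TAIR10.1; chr1:19980049-19980348, plus strand and chr5:3884789-3885088, minus strand), read 5′ to 3′ on the strand of the gene. Capitals mark GAANNTTC or TTCNNGAA, which overlap in AT1G53540.
AT1G53540: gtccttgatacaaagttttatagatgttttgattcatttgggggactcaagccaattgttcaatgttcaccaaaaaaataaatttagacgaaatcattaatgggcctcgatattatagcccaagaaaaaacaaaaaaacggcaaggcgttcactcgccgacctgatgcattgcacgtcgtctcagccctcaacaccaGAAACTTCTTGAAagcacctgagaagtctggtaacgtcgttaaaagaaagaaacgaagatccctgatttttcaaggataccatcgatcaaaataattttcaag
HSP17.6A: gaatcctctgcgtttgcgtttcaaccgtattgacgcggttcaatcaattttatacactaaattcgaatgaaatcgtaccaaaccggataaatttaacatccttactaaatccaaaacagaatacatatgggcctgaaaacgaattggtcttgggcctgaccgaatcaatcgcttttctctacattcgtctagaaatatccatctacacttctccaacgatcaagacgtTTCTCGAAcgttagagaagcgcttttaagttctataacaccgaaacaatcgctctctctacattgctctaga
The matches begin 53 and 48 bases before the gene start in AT1G53540 and 22 bases before it in HSP17.6A. GAANNTTC was present in 12 of 33 promoters of the heat shock list (36.4%) and in 11.2% of all 20605 promoters of tested nuclear genes, on either strand. TTCNNGAA, searched after the promoters had been seen, was present in 12 of 33 (36.4%) against 9.16%. HSP17.6II, with the largest rise on the list, held neither in this window, and 5 of the 8 heat shock genes that were not called held at least 1 of the 2 (62.5%, against 18.8% of all promoters).

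Across the list of 33 heat shock factors and heat shock proteins tested, 25 rose (75.8%, against 10% of all tested genes) and none fell. The median difference was 2.96, against -0.002 over all genes. The cytosolic chaperone HSP70 (AT3G12580) went from 49.7, 49.5 and 59.2 FPKM to 551, 779 and 1798 FPKM, a difference of 4.098 ± 0.34 (limma adjusted p = 2.12e-07). The HSP90 family member HSP90.1 rose by 3.75, the disaggregase HSP101 by 2.96, and the organellar disaggregases CLPB4 (mitochondrial) and CLPB3 (plastid) by 1.82 and 1.35. HSP21, the small heat shock protein of plastids, was listed at 0, 0 and 0.142 FPKM in CT and stood at 2.124, 15.02 and 69.1 FPKM in EL. Chaperones of all these compartments were among the genes that rose.

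Among the factors themselves, the inducible HSFA2 went from 0.554, 0.520 and 0.967 FPKM to 14.5, 20.6 and 61.2 FPKM, a difference of 4.04 ± 0.48 (limma adjusted p = 1.15e-05). HSF4 (also called HSFB1), AT-HSFB2B and HSFB2A, class B factors, rose by 1.56, 1.44 and 1.11, the last call being lost without EL replicate 3 or CT replicate 3. The constitutive master regulators of the HSFA1 group did not pass the test: HSF1, HSF3, HSFA1D and HSFA1E had differences of -0.18, -0.23, 0.46 and -0.23. HSFA1D was closest, with a limma adjusted p of 0.051. MBF1C, a coactivator of the heat response, rose from 11.1, 14.7 and 14.1 FPKM to 52.8, 101 and 382 FPKM.

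The 3 EL libraries differed widely in this group. In all 25 called members EL replicate 3 was highest and EL replicate 1 lowest, and the median ratio between the 2 was 5.27. The summed level of the whole list was 278 to 302 FPKM in CT and 2187, 3766 and 11660 FPKM in EL replicates 1, 2 and 3, or 0.277, 0.486 and 1.50% of all FPKM. Without EL replicate 3 the number of members called higher was 20, and it was also 20 with the 6 compared libraries fitted alone. The main fit pools the spread over the 8 wild-type groups. Fitting the 6 libraries alone gave a limma adjusted p of 0.00215 for HSP17.6II, 0.0045 for AT1G53540 and 0.0349 for ATHSP22.0. For comparison, wild-type seedlings held at 33 °C in growth light (HS) had a higher mean than EL for all 25, and in 13 of them the 3 HS libraries lay wholly above the 3 EL libraries (15.7% of all tested genes did so). ATHSP22.0 stood at 1542 ± 571 FPKM (SD, n = 3) in HS and 48.8 ± 60.8 in EL, whereas HSFA2 stood at 48.8 ± 24.5 FPKM in HS and 32.1 ± 25.4 in EL.

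**Figure D2:**
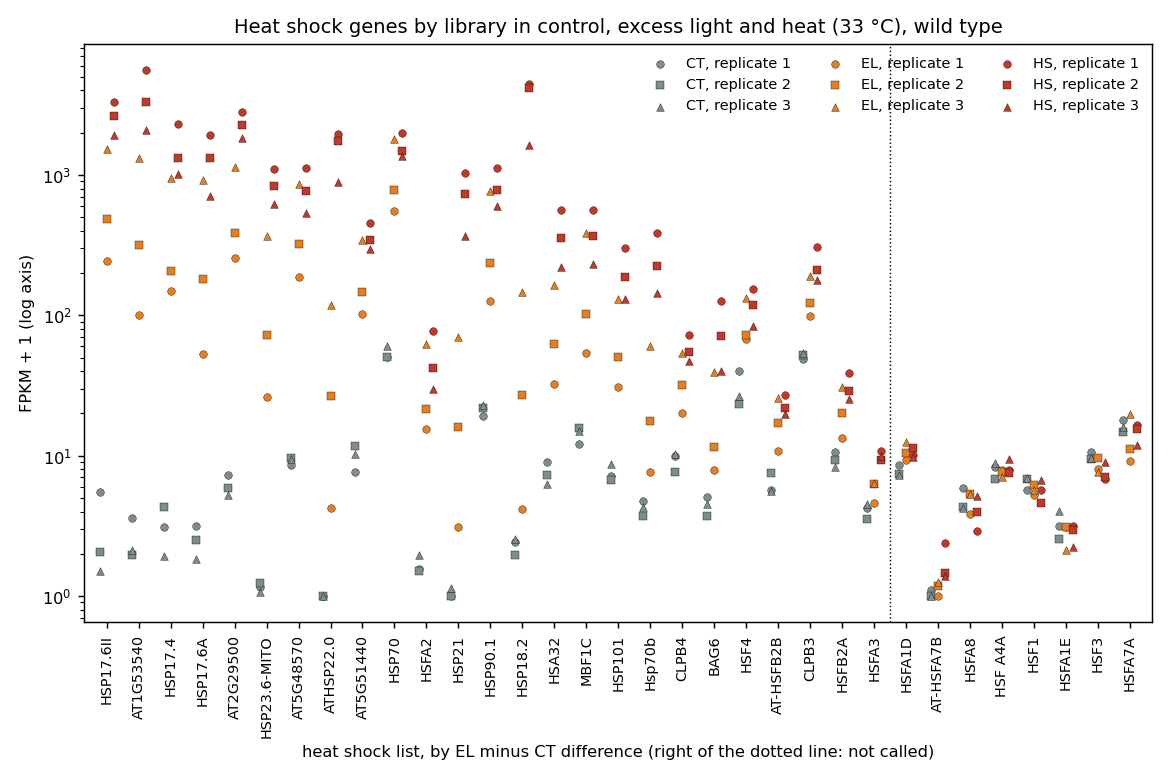
FPKM + 1 (log axis) of each heat shock list member in the 3 CT, 3 EL and 3 HS wild-type libraries; colours are groups and symbols replicate numbers. Left of the dotted line are the 25 called genes, in which EL replicate 3 is the highest of the EL libraries and EL replicate 1 the lowest; right of it are 8 genes that were not called.

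Beyond the chaperones, the early light-induced proteins, which bind free chlorophyll in the thylakoid under high light, stood out in the photoprotection list. ELIP1 (AT3G22840) went from 12.9, 20.5 and 16.1 FPKM to 179, 124 and 188 FPKM, a 9.94-fold ratio of means and a log2 difference of 3.24 ± 0.24 (limma adjusted p = 8.94e-08). ELIP2 (AT4G14690) went from 17.59, 45.1 and 29.1 FPKM to 222, 127 and 87.0 FPKM, a difference of 2.202 ± 0.31. These were the 2 of 13 list members called higher, and 30.8% of the list was called in either direction against 17.7% of all tested genes. NPQ4, the PsbS protein that triggers rapid energy dissipation, was already abundant at 1592 ± 204 FPKM in CT and stood at 1712 ± 104 FPKM in EL (limma adjusted p = 0.507). LIL3:2, a light-harvesting-like protein, and STN7, the kinase of antenna state transitions, fell by 0.53 and 0.35, the latter call being lost in 3 of 11 alternative analyses.

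The promoter of ELIP1 (chr3:8085620-8085919, minus strand) is shown with that of the flavonoid gene TT4 (chr5:4488226-4488525, plus strand) because both genes rose and both windows hold the G-box CACGTG, a motif bound by HY5 and other bZIP and bHLH factors. The windows are as above (RefSeq, TAIR10.1), and capitals mark CACGTG, which contains the ACGT core and reads the same on both strands.
ELIP1: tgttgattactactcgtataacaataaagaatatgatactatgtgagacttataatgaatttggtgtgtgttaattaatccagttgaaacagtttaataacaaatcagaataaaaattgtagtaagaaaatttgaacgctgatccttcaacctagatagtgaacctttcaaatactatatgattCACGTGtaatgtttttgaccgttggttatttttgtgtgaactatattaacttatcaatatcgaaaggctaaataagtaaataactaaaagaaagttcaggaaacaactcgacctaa
TT4: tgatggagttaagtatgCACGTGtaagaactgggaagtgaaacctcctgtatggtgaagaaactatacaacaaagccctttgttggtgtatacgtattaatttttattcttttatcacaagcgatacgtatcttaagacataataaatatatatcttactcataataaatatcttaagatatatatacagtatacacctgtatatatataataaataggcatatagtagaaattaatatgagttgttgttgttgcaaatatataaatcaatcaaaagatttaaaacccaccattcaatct
The G-box begins 66 bases before the gene start in ELIP1 and 233 bases before it in TT4. It was present in 8.77% of all promoters, in 6 of 13 promoters of the flavonoid enzyme list (46.2%) and in 5 of 21 of the light-harvesting list (23.8%), whose members mostly fell.

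The flavonoid pathway makes sunscreen flavonols and anthocyanins from phenylalanine. Of its 13 enzymes tested, 10 rose (76.9%, against 10% of all tested genes) and none fell (median difference 1.22). FLS1, flavonol synthase, went from 17.9, 39.9 and 35.04 FPKM to 307, 126 and 91.8 FPKM, a difference of 2.34 ± 0.36 (limma adjusted p = 0.000152). TT4, chalcone synthase and the entry step, went from 94.4, 205 and 164 FPKM to 818, 491 and 449 FPKM, a difference of 1.94 ± 0.26. F3H, flavanone 3-hydroxylase, rose by 2.15, with most of its exon length shared with a gene on the other strand. The late anthocyanin genes DFR and LDOX had differences of 0.84 and 0.66 with limma adjusted p of 0.0532 and 0.148, and were not called.

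In this pathway the order of the EL libraries was the reverse of that in the heat shock group. The enzymes summed to 2120 FPKM in EL replicate 1 against 1027 and 878 FPKM in replicates 2 and 3, and to between 258 and 428 FPKM in CT. Upstream, 4CL3 and PAL1 and C4H of the general phenylpropanoid pathway rose by 2.22, 1.23 and 1.02, again highest in EL replicate 1, while PAL3 fell by 1.36. MYB12, the main activator of flavonol genes, was even across EL, at 21.4, 19.0 and 17.41 FPKM against 1.82, 3.05 and 4.35 FPKM in CT, a difference of 2.36 ± 0.25 (limma adjusted p = 3.02e-06). The anthocyanin activator PAP1 and the flavonol activator MYB111 rose by 1.81 and 1.03. The repressor MYBL2 and the scaffold protein TTG1 were called lower, at -0.69 and -0.40, but both calls were lost when libraries were rescaled by size factors. Without EL replicate 1 the enzymes called higher numbered 8.

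In light signalling, 9 of 30 tested genes rose and 5 fell (median 0.02), against 10% and 7.70% of all genes. The higher count was 6 without CT replicate 1, EL replicate 2 or EL replicate 3, and the lower count was 2 without CT replicate 1, 3 without EL replicate 1 and 1 with the 6 libraries fitted alone. HY5, the bZIP factor that promotes light-dependent transcription, went from 12.6, 17.8 and 22.5 FPKM to 39.9, 58.0 and 50.4 FPKM, a difference of 1.46 ± 0.21 (limma adjusted p = 7.52e-05). Its homologue HYH rose by 0.84, and BBX31, a B-box protein of the same pathway, by 2.08, from 4.89, 5.07 and 5.35 FPKM to 25.2, 29.4 and 20.7 FPKM. BBX27 fell by 1.25, the blue-light receptors CRY1 and PHOT1 by 0.54 and 0.55. PHYB was called higher at 0.29 and PIF4, which promotes elongation, lower at -0.45, each with overlapping groups and with 6 of 11 alternatives losing the call. In the circadian clock 4 of 21 rose and 4 fell (median -0.14), the lower count being 1 without CT replicate 1 or CT replicate 3 and 2 without EL replicate 3. PRR9, a light-induced morning gene, rose by 1.22 and GI by 0.71, whereas TCP11 (listed as CHE) fell by 1.11. The morning factor CCA1 had a difference of 0.49 (limma adjusted p = 0.0694), and LHY was called lower at -0.57, lost in 6 of 11 alternatives.

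Photosynthetic transcripts made up the list with the most decreases. Of 21 light-harvesting genes, whose proteins carry antenna chlorophyll, 18 fell and 1 rose, against 7.70 and 10% of all tested genes. The median difference was -0.69. LHB1B1 (AT2G34430), an LHCB1 gene, went from 3220.5, 2610.1 and 2714 FPKM to 807, 983 and 1037 FPKM, a difference of -1.60 ± 0.22 (limma adjusted p = 4.86e-05). CAB2 (AT1G29920) went from 3492, 4148 and 4064 FPKM to 1892, 1711 and 1602 FPKM, a difference of -1.17 ± 0.13. The most abundant members, LHB1B2 and CAB1, fell by 0.75 and 0.82 from means of 17270 and 15120 FPKM. CAB1, CAB2 and CAB3 are near-identical copies, so the split of reads among them is uncertain, and LHB1B2 lies wholly within exons of a gene on the other strand.

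The decrease was even between replicates. The list summed to between 77770 and 85340 FPKM in CT and between 48450 and 50580 in EL, which is 9.84 to 10.7% of all FPKM in CT and 6.13 to 6.52% in EL, and the library medians of the EL group lay between -0.655 and -0.647. The exceptions were AT1G76570 (LHCB7), which rose by 0.64, LHCB4.3, with a difference of 0.38, and Lhca6, with -0.28. Among antenna proteins of photosystem I, LHCA4 fell by 0.83, LHCA1 by 0.51 and LHCA3 by 0.32, the last call being lost in 6 of 11 alternatives. In libraries of whole seedlings fewer cells of a type and less RNA per cell cannot be told apart.

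Core photosystem subunits encoded in the nucleus moved the same way by smaller amounts. Of 21 tested, 16 fell and none rose (median -0.35), against 7.70 and 10% of all tested genes. Decreases ran from PSAD-2, a docking subunit of photosystem I, at -0.82 ± 0.11, to PSAE-1, at -0.29. The PSAE-1 call was lost in 9 of 11 alternatives. Genes of chlorophyll synthesis followed: 15 of 23 fell and 1 rose (median -0.36), against the same shares of all tested genes. PORB, the light-dependent protochlorophyllide oxidoreductase, went from 169, 143 and 163 FPKM to 76.8, 67.5 and 61.2 FPKM (-1.2 ± 0.19), and CHLM, magnesium protoporphyrin methyltransferase, from 360.0, 365 and 368 FPKM to 192, 221 and 210.2 FPKM (-0.81 ± 0.09). HEMA1, which encodes the first dedicated enzyme of the pathway, was called higher at 0.39, lost in 4 of 11 alternatives. Fitting only the 6 compared libraries left 6 photosystem and 8 chlorophyll genes called lower. Without CT replicate 3 both counts were 10, and without EL replicate 3 they were 13 and 10.

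In carbon fixation, 3 of 20 Calvin cycle genes fell and 1 rose (median -0.09), or 20% called against 17.7% of all tested genes. The Rubisco small subunit RBCS1A had a difference of -0.15 (limma adjusted p = 0.324). GAPA-2 fell by 0.57 and PRK, phosphoribulokinase, by 0.38. In photorespiration, GLDP1, a glycine decarboxylase subunit, rose by 0.60, and 2 of 10 genes fell (30% called, against 17.7%). Of the sigma factors that direct the plastid RNA polymerase, SIGE (SIG5), known as the stress-inducible member, rose by 0.90 ± 0.19 from 70.9, 75.1 and 75.4 FPKM to 114, 187 and 125 FPKM, and SIG2 fell by 0.41. SIGC (SIG3), named in the study's title, had a difference of 0.00 ± 0.09.

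**Figure D3:**
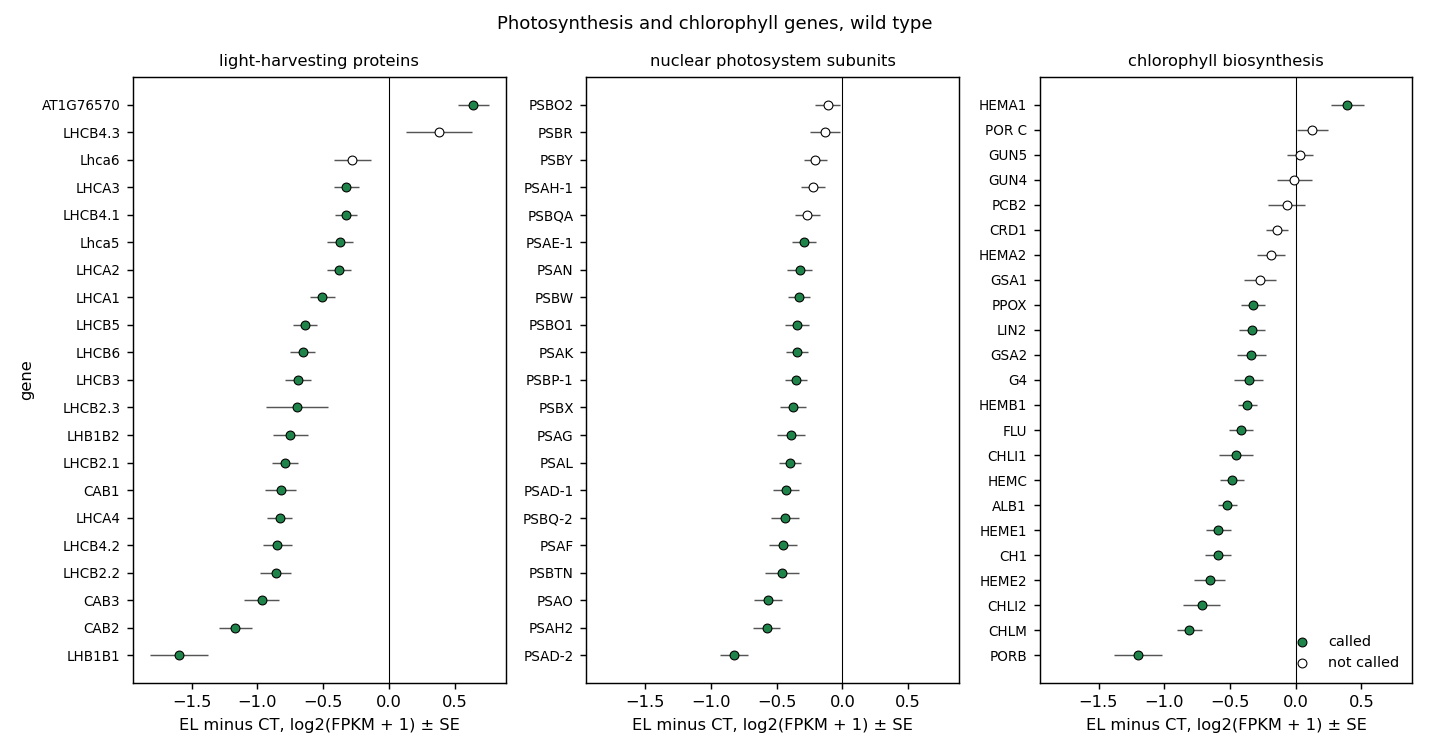
EL minus CT difference with its standard error (horizontal axis, log2(FPKM + 1)) for each tested member of 3 photosynthesis lists; filled points passed the test and open points did not. Of the 21, 21 and 23 genes, 18, 16 and 15 lie below 0 and passed, led by LHB1B1 at -1.60, PORB at -1.2 and CAB2 at -1.17.

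Some root markers were called higher in EL at the same time, 50% of those tested against 10% of all tested genes. Of 10 tested, 5 rose and none fell (median 0.85): TIP2;3 by 1.62, EXPA7 by 1.15, CASP1 by 1.04, RCI3 by 0.93 and LRX1 by 0.93. The most abundant, PYK10, stood at 1693, 2002 and 1645 FPKM in CT and 2812, 1926 and 1771 FPKM in EL and was not called. The summed list was 1750 to 2109 FPKM in CT and 3013, 2100 and 2027 FPKM in EL, so only EL replicate 1 lay above the CT range. No defining root marker was at 0. The calls numbered 2 without CT replicate 1, without EL replicate 1 or without EL replicate 3. In libraries labelled rap2.3, where the light-harvesting list also fell (14 of 21), none of the root markers was called. The part of root material in the light-harvesting decrease and in the increases described below was not tested.

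Antioxidant defence rose in part. Of 21 enzymes 9 rose and 2 fell (median 0.26), against 10 and 7.70% of all tested genes. APX1, the cytosolic ascorbate peroxidase, went from 918, 859 and 957 FPKM to 2215, 1551 and 1924 FPKM, a 2.08-fold ratio (1.04 ± 0.13; limma adjusted p = 1.865e-05). APX2, a classical high-light reporter gene, was listed at 0 in all CT libraries and stood at 1.51, 4.65 and 18.9 FPKM in EL, and its call was lost without EL replicate 3. Genes around ascorbate and glutathione followed: VTC2, a control step of ascorbate synthesis, rose by 0.89, dehydroascorbate reductase DHAR1 by 0.94 and the cytosolic glutathione reductase GR1 by 0.92, while the organellar reductase GR fell by 0.49. CAT2, the leaf catalase, went from 1060.2, 1250.0 and 1158 FPKM to 1772, 2324 and 2422 FPKM (0.90 ± 0.15), and CAT3 fell by 0.49. The plastid superoxide dismutase CSD2 and its copper chaperone CCS had differences of -0.18 and -0.36.

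Of 9 plastid proteases and chaperones 6 rose and 1 fell, against 10 and 7.70% of all tested genes. CR88, the plastid HSP90, went from 104, 112 and 107 FPKM to 261, 326 and 463 FPKM (1.65 ± 0.20; limma adjusted p = 1.21e-05), and the plastid HSP70 gene cpHsc70-2 rose by 1.09. Among the FtsH proteases that clear damaged photosystem II reaction centres, FTSH8, FTSH1 and VAR1 (FTSH5) rose by 0.81, 0.43 and 0.39, while VAR2 (FTSH2), the most abundant, had a difference of 0.02. In carotenoid and tocopherol synthesis 4 of 14 genes rose and 2 were called lower, against 10 and 7.70% of all tested genes. The median was -0.03, and the lower count was 0 without CT replicate 1 or CT replicate 3. BETA-OHASE 2 and BETA-OHASE 1, which hydroxylate beta-carotene, rose by 0.91 and 0.58 and the tocopherol cyclase VTE1 by 0.74. NPQ1, violaxanthin de-epoxidase, was called lower at -0.55, lost in 4 of 11 alternatives.

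Genes of mitochondrial stress and tau-class glutathione transferases rose in 10 of 16 cases (62.5%, against 10% of all tested genes) with none lower (median 0.86). AT2G21640 went from 2.06, 4.40 and 2.15 FPKM to 13.1, 12.1 and 28.7 FPKM (2.24 ± 0.34). GSTU5 rose by 1.48, the alternative NADH dehydrogenase NDB2 by 1.43, NAC13, a regulator of mitochondrial retrograde responses, by 1.19, and the alternative oxidase AOX1A by 0.98. The unfolded protein response of the endoplasmic reticulum was likewise higher, in 6 of 8 genes (75%, against the same 10%), with a median of 1.23. The lumenal HSP70 gene BIP2 went from 66.6, 67.3 and 83.8 FPKM to 293, 216 and 276 FPKM (1.83 ± 0.17; limma adjusted p = 7.54e-07), ATERDJ3A rose by 2.52 and CNX1, calnexin, by 1.52. BIP3, the stress-specific paralogue, stayed between 0.413 and 1.66 FPKM in all 6 libraries.

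Dehydration and cold genes were among the strongest increases outside the chaperones. Of 20 tested genes of the abscisic acid and dehydration list 13 rose (65%, against 10% of all tested genes) and none fell (median 1.07). Library medians were even, at 1.26, 1.14 and 1.04. COR15A, a chloroplast protein of cold acclimation, went from 1.25, 1.97 and 1.23 FPKM to 27.7, 24.6 and 21.4 FPKM, a difference of 3.37 ± 0.41 (limma adjusted p = 1.3e-05). The dehydrin ERD10 went from 13.4, 16.7 and 10.6 FPKM to 94.4, 107 and 110.2 FPKM (2.87 ± 0.18; limma adjusted p = 1.09e-08). KIN1, LTI78 (RD29A), KIN2 and COR47 rose by 3.28, 2.71, 2.21 and 1.87. Of the feedback phosphatases of abscisic acid signalling, HAI1 rose by 2.37 and ABI1 by 1.02. RAB18 and LTI65 (RD29B), which respond to abscisic acid itself, had differences of 0.38 and 1.05 with limma adjusted p of 0.462 and 0.0839, and NCED3, of abscisic acid synthesis, had 0.93 with 0.0597.

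The promoter of LTI78 (chr5:21240467-21240766, plus strand; RefSeq, TAIR10.1) is shown because it is the textbook case of the dehydration response element, bound by DREB and CBF factors. The window is as above, and capitals mark the core CCGAC, searched on both strands.
LTI78: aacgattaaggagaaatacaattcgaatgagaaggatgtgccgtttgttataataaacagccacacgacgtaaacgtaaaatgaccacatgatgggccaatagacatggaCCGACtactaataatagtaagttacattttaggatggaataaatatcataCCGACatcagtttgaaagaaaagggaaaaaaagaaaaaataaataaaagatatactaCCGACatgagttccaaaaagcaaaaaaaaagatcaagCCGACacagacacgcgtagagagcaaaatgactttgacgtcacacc
The core occurs 4 times, beginning 140, 90 and 33 bases before the gene start and once after it. Over the whole list it was present in 4 of 20 promoters (20%), near the 16.1% of all promoters. Of the factors, DREB2A rose from 9.05, 13.7 and 10.07 FPKM to 18.12, 33.996 and 45.1 FPKM (1.41 ± 0.31; limma adjusted p = 0.00345), while CBF2 and DREB1A had differences of -0.11 and -0.29.

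Of 8 genes of galactinol and proline synthesis 3 rose and 1 fell (median 0.41), or 50% called against 17.7% of all tested genes. Galactinol synthases start raffinose synthesis. GolS1 went from 18.7, 18.05 and 16.5 FPKM to 64.1, 167 and 526 FPKM, a difference of 3.26 ± 0.48 (limma adjusted p = 0.000103). Its libraries had the same order as in the heat shock genes, and GolS2 rose by 2.86. Of 18 tested rapid stress transcription factors and singlet oxygen markers 16.7% were called, near the 17.7% of all tested genes. ZAT6 and DREB2A rose and MYB30 fell by 1.00. RHL41 (ZAT12), STZ (ZAT10) and WRKY40 had differences of 0.57, 0.24 and 0.57 and were not called. The hypoxia list, which includes the group VII ERFs, held 1 increase in 14 genes (7.14%, against 10% of all tested genes), SUS1, at 1.13. RAP2.3 itself, listed as EBP, had a difference of -0.05 ± 0.15, at 64.6, 53.0 and 57.8 FPKM in CT and 45.0, 64.5 and 61.0 FPKM in EL.

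Of 14 genes of sugar, starch and trehalose phosphate metabolism 2 were called higher and none lower (median -0.03), against 10% and 7.70% of all tested genes. GPT2, the glucose 6-phosphate transporter of plastids that responds to sugar, went from 0.333, 0.105 and 1.27 FPKM to 12.97, 9.40 and 6.73 FPKM (2.80 ± 0.44; limma adjusted p = 0.000176). Of 8 carbon starvation markers 3 fell (DIN10 by 1.07, BT2 by 1.296, SEN1 by 1.39) and EXL4 rose by 1.04. The median of this list was -1.38 in EL replicate 1 but -0.04 and 0.11 in replicates 2 and 3, and 1 member was called lower without EL replicate 1 or without CT replicate 1. The APR1, APR2 and APR3 genes of sulfate reduction rose by 1.02, 1.01 and 1.04, and NIA1, a nitrate reductase, was called lower at -0.99, a call lost without EL replicate 1, CT replicate 1 or CT replicate 2.

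Jasmonate genes were called higher in 9 of 19 cases (median 0.48), or 47.4% against 10% of all tested genes. VSP1 and VSP2, storage and defence proteins, had differences of 2.22 and 2.13. VSP2 stood at 39.0, 14.2 and 10.005 FPKM in CT and 39.6, 77.7 and 174 FPKM in EL, so that CT replicate 1 nearly reached EL replicate 1, and VSP1 overlapped between groups. The count rested on single libraries: it was 1 without CT replicate 3, 1 without EL replicate 3, 2 without CT replicate 2, and 4 without EL replicate 1. In the glucosinolate list MYB34 rose by 1.02 and MYB51 fell by 1.13 among 16 genes. That is 12.5% called, below the 17.7% of all tested genes. MYB51, also named in the study's title, stood at 17.35, 4.91 and 11.2 FPKM in CT and 3.53, 5.44 and 3.33 FPKM in EL, with overlap, and its call was lost without CT replicate 1. The salicylic acid list held 1 lower gene of 8 (12.5% called, also below 17.7%), EDS16 at -0.64.

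GASA6 (AT1G74670), a gibberellin-regulated peptide gene, had the largest of the named decreases. It went from 164, 114 and 117 FPKM to 9.13, 32.5 and 36.8 FPKM, a difference of -2.48 ± 0.35 (limma adjusted p = 5.67e-05). Expansins loosen the cell wall during growth. Of 9 alpha expansins tested 4 fell and 1 rose (median -0.44), against 7.70 and 10% of all tested genes. EXPA8 went from 48.9, 53.8 and 72.8 FPKM to 8.76, 15.1 and 14.8 FPKM (-2.12 ± 0.31), and EXPA1 from 194, 213 and 237 FPKM to 59.8, 77.3 and 65.8 FPKM (-1.66 ± 0.14; limma adjusted p = 2.97e-07). EXPA11 and EXPA6 fell by 1.15 and 0.56, whereas EXPA10 rose by 1.44, from 19.5, 32.5 and 29.0 FPKM to 70.5, 74.2 and 75.0 FPKM. Of 16 auxin response genes 1 rose and 2 fell (18.8% called), near the 17.7% of all tested genes. Of 13 mitotic genes 1 fell (7.69%).

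The other named decreases were AT5G48490, a lipid-transfer family gene, at -2.17 ± 0.28, AT1G29090, a cysteine proteinase gene, at -1.97, TBL45, of a family that acetylates cell wall polysaccharides, at -1.61 ± 0.21, and AT1G15825, at -1.69. Weaker cases were AT5G42825 (-2.28), MIR167d (-2.05), RGF6 (-1.87), AT2G14247 (-1.82) and AT2G33830 (-1.60), whose calls were lost in 5, 5, 3, 1 and 8 of 11 alternative analyses. AT5G42825, RGF6 and AT1G15825 share 98.7, 99.0 and 72.2% of their exon length with genes on the other strand. MIR167d is a microRNA precursor locus, with values of 10.2, 2.65 and 10.8 FPKM in CT and 1.098, 2.22 and 0 FPKM in EL. The 12 named increases kept their calls in all 11 alternatives.

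**Figure D4:**
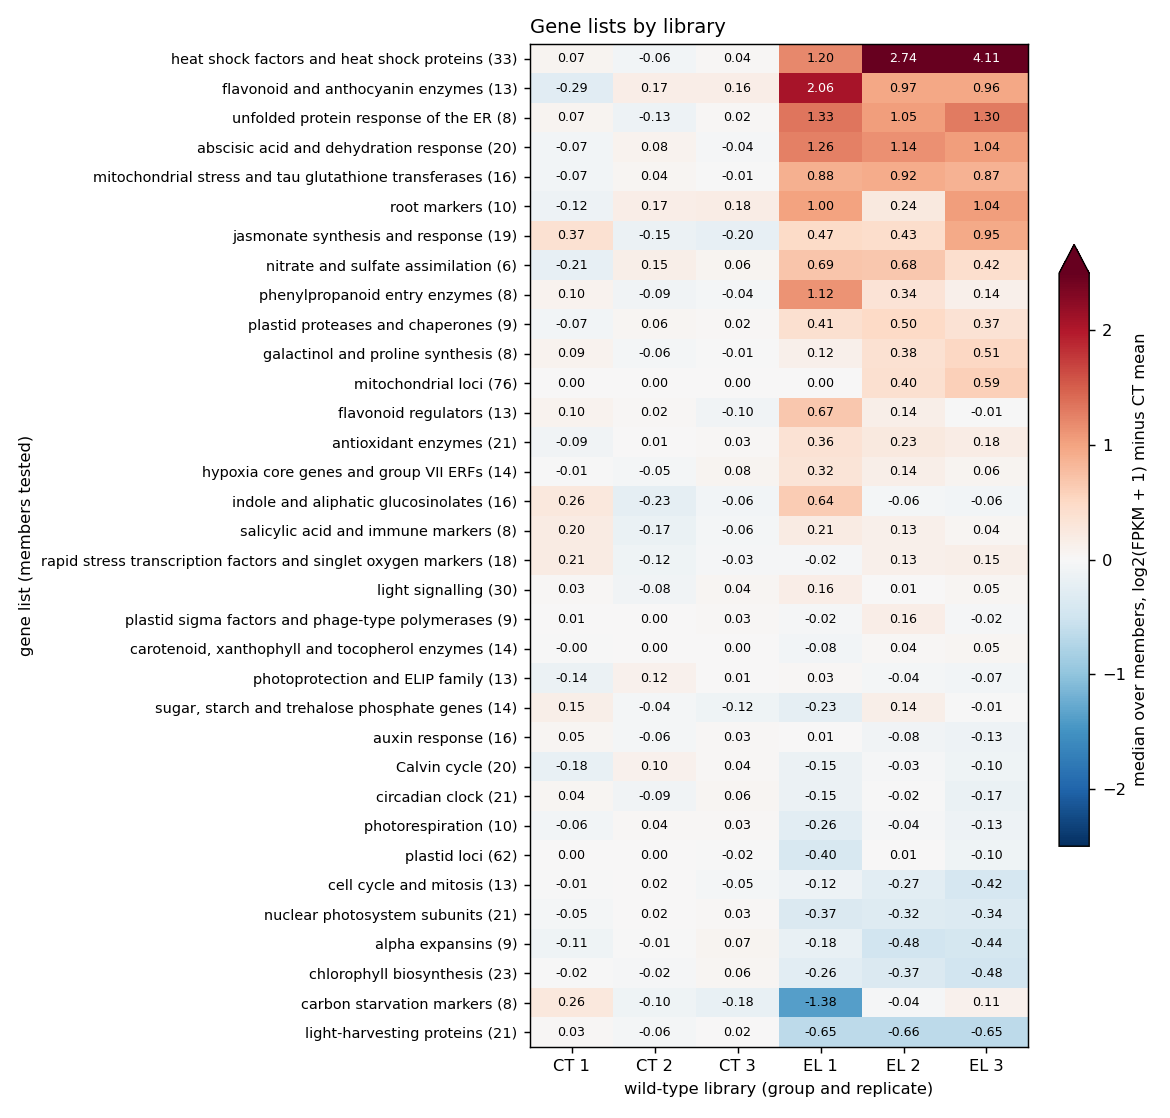
Median over the tested members of each gene list of log2(FPKM + 1) minus the CT mean, for each wild-type library (columns); the number of members is in parentheses, and the 2 seed storage genes are left out. The colour scale ends at 2.5. The 3 EL libraries are close to each other for light-harvesting genes (-0.655 to -0.647) and far apart for heat shock genes (1.2 to 4.11) and carbon starvation markers (-1.38 to 0.11).

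The light response was then set beside that in other backgrounds, in libraries that enter neither EL nor CT of wild type. The wild-type steps share each gene's estimate of spread from the fit of 24 libraries. Their calls are therefore not independent, and their overlap is a description. On salt (S+EL against S), 901 of the 2074 higher genes were also higher, which is 43.4% of them against 6.76% of all tested genes. They made up 64.2% of the genes higher in that step, against 10% of all tested genes higher in EL against CT. Of the 2074 genes, 7 were lower on salt. Of the 1598 lower genes 678 were also lower (42.4% against 5.18%, and 63.1% of the step's lower genes against 7.70%). At 33 °C (EL+HS against HS) the shared genes were 477 higher and 409 lower, while 110 and 49 moved the opposite way. The 477 were 23% of the wild-type set against 7.07% of all tested genes, and 32.5% of the step's genes against 10%. The 409 were 25.6% against 12.4%, and 15.8% against 7.70%. The split of calls in that step depended on the scaling: it was 1466 higher and 2581 lower as reported, with a median difference of -0.08 over all genes, and 1951 higher and 1753 lower with size factors. With salt and heat together (S+EL+HS against S+HS) 145 and 53 genes were shared (6.99 and 3.32% of the wild-type sets, against 1.90 and 0.834% of all tested genes).

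The response to light differed with heat for 1926 genes (interaction term in limma, adjusted p under 0.05, 9.28% of genes tested) and with salt for 51 (0.246%), a count that was 0 without CT replicate 1, S replicate 2 or S+EL replicate 2. In the heat shock list the difference was negative for 17 of 33 genes (5.93% of all genes), and none of its members was called when light was added at 33 °C, where the median was 0.18. HSP17.6II, for instance, stood at 2619 ± 695 FPKM in HS (SD, n = 3) and its added light difference there was 0.15. In the light-harvesting list 11 of 21 genes had a more positive light response at 33 °C, and so had 9 of 10 photorespiration genes (3.35% of all genes). The interaction subtracts the EL minus CT difference, and the lists were chosen with earlier results of these data known. That choice can favour values of the opposite sign, so these list counts are a description. Dehydration genes rose in 11 of 20 cases at 33 °C and in 19 of 20 on salt, against 7.07 and 6.76% of all tested genes. EXPA1, lower by 1.66 at 21 °C, was higher by 0.72 when light was added at 33 °C, where it stood in HS at 49.7 ± 6.95 FPKM. It was also higher by 0.55 when light was added to salt and heat (limma adjusted p = 0.0347). The carotenoid list, with 4 increases at 21 °C, had 9 of 14 at 33 °C, against 7.07% of all tested genes there.

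**Figure D5:**
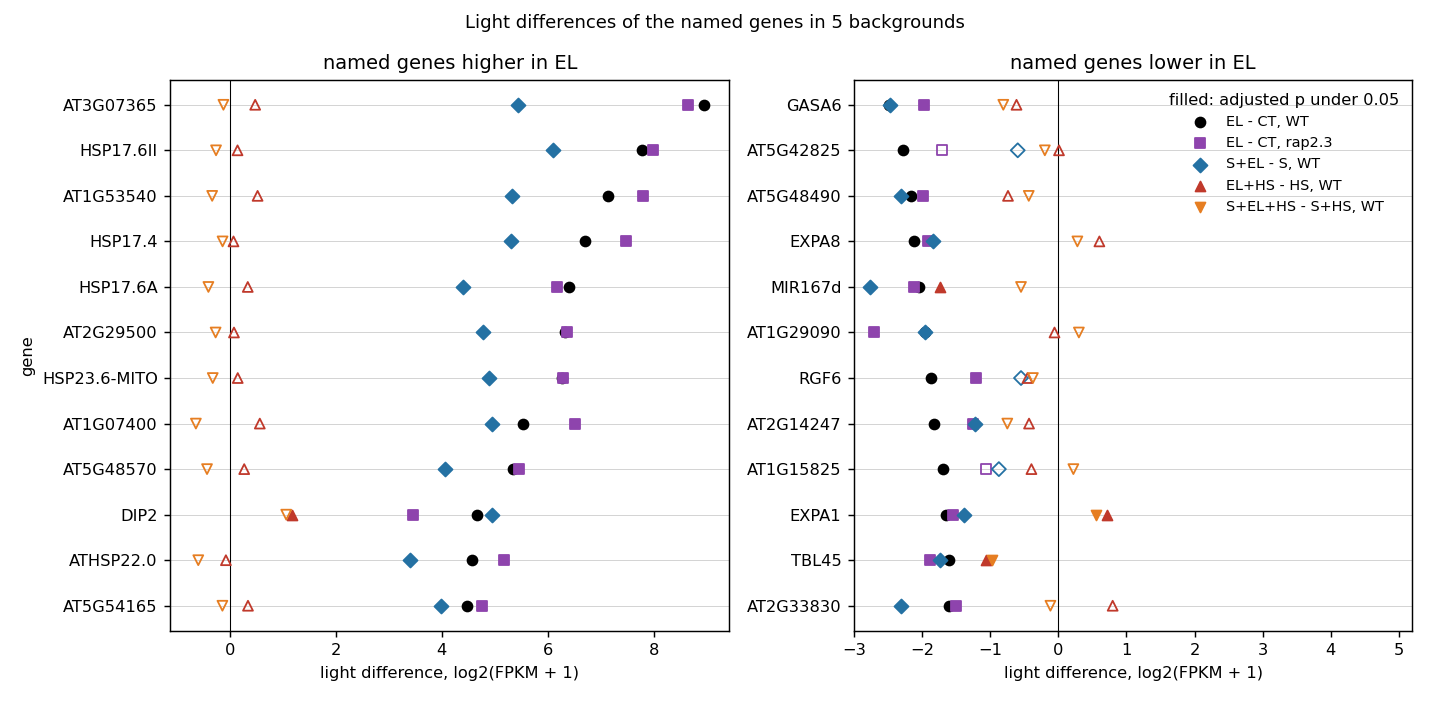
Light difference (horizontal axis, log2(FPKM + 1)) of the 12 named increases and 12 named decreases in wild type, in libraries labelled rap2.3, on salt, at 33 °C, and with both; filled symbols passed the test. At 33 °C without salt DIP2 alone of the named increases passed the test, and with salt and heat none did. TBL45 and EXPA1 passed it in all 5 backgrounds, EXPA1 with the opposite sign at 33 °C with and without salt.

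The RAP2.3 transcript, the gene carrying the insertion, stood at 316 ± 36.5 FPKM (SD, n = 3) in the CT libraries labelled rap2.3 against 58.45 ± 5.84 FPKM in wild-type CT, so its level was higher where the label gives an insertion mutant. In those libraries the comparison of EL with CT called 1567 genes higher and 1374 lower (7.61 and 6.67% of those tested). No gene passed the test for a different response in the 2 genotypes (interaction in limma, 0 of 21322 genes, with 615 at an unadjusted p under 0.05). The count was 6 without wild-type CT replicate 2. With 3 libraries per group, this does not show that the responses were equal. Of the wild-type calls 57.2% of the higher and 57.1% of the lower genes were called the same way, and none the opposite way. All 12 named increases and 10 of 12 named decreases were called again. Of the gene lists, 24 of 33 heat shock genes, 8 of 13 flavonoid enzymes and 11 of 20 dehydration genes were higher, and 14 of 21 light-harvesting genes were lower. Other counts differed, with no gene passing the interaction test: 5 root markers were called higher in wild type and none in libraries labelled rap2.3, 3 carbon starvation markers lower against none, and of 62 plastid loci 1 was higher and 2 lower against 12 higher, with no shared call. The medians of the plastid loci were -0.14 and 0.52.

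For replicates 1 and 3 the EL libraries of both genotypes varied together: their deviations from the group means correlated across genes at 0.548 and 0.443. For replicate 2 the value was 0.115. It was 0.122 for wild-type replicate 2 with rap2.3 replicate 3, and 0.176 for wild-type replicate 3 with rap2.3 replicate 2. In all 25 heat shock members called in wild type, EL replicate 3 was highest and EL replicate 1 lowest in libraries labelled rap2.3 too. Those libraries are therefore no independent check of the spread among the EL replicates. With a shared term for libraries of equal number within each treatment, an alternative added after the values were seen, the genotype interaction still called 0 genes, with 1172 at an unadjusted p under 0.05.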

How the data were processed

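Gene-level FPKM values were deposited by the authors, in 1 table per genotype, for 48 libraries in 16 groups of 3 biological repeats. Per the submitters' processing notes they were made with HISAT2 and Cufflinks on TAIR10. Versions, the annotation and whether strand was used are not given in the sources used here. FPKM is scaled within each library, so a rise in abundant transcripts lowers the values of the others. Depth was unknown: only 4.75 to 15.8% of low genes fell on a common step between libraries, within a tolerance of 0.01 on the log2 scale, so no read counts were recovered and no count test was run.

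Genes with at least 1 FPKM in at least 3 of the 24 wild-type libraries entered limma 3.58.1 (run under R 4.3.3) as log2(FPKM + 1), with group means over 8 groups, a mean-variance trend, and with Benjamini-Hochberg adjustment over all genes tested and a threshold of 0.05. The code was tested on simulated data. Genes were named by rule: the 12 largest increases and 12 largest decreases among called genes with non-overlapping groups and a mean of at least 5 FPKM in the higher group, plus members of 33 gene lists. The comparison, the members and the lists were chosen with earlier results of these data known. Gene names, exon overlaps and promoters came from RefSeq TAIR10.1, which held 32539 of 32824 loci. The deposited tables hold no coordinates. Figures were drawn with matplotlib 3.10.9. The 11 alternatives were another pseudocount (0.1), no filter on low values, size factors, a replicate block, a fit of the 6 compared libraries alone, and leaving out each of those 6 libraries. Equal numbers paired EL replicates 1 and 3 across genotypes in the values, but replicate 2 no more than some unequal numbers. The CT correlations of deviations were 0.027, 0.11 and 0.077. Over the 8 treatments 13 of 24 pairs of equal number correlated above 0.1. The labels tie no number to a shared day. P-values measure the spread between the repeats as labelled. For the wild-type contrasts this spread is pooled over 8 groups (16 residual degrees of freedom), so it is not that of EL and CT alone.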

Additional observations from a re-analysis of the deposited data

Results flagged for a closer look

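The light response of 17 of the 24 named genes differed between 21 °C and 33 °C by limma's interaction test, against 9.28% of all genes tested. The 24 were named for large differences between EL and CT at 21 °C, which the interaction subtracts, so that choice favours values of the opposite sign and the count is a description. Values are the light difference at 33 °C minus that at 21 °C, on the log2(FPKM + 1) scale, 3 libraries in each of the 4 groups. For small heat shock proteins it was -7.63 for HSP17.6II, -6.63 for HSP17.4, -6.61 for AT1G53540, -6.23 for AT2G29500, -6.11 for HSP23.6-MITO, -6.06 for HSP17.6A, -4.96 for AT1G07400 and -4.64 for ATHSP22.0. AT3G07365, which lies opposite HSP17.4, had -8.45, the peptidyl-prolyl isomerase gene AT5G48570 had -5.06, AT5G54165 had -4.13 and DIP2 had -3.475. In DIP2 the mean in HS was 5.58 FPKM, below its level in each EL library, whereas HSP17.6II stood at 2619 FPKM in HS, above each EL library.

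Among the decreases the value was 2.72 for EXPA8, 2.37 for EXPA1, 1.91 for AT1G29090, 1.87 for GASA6 and 1.43 for AT5G48490. EXPA1 was called higher on adding light at 33 °C, by 0.72, where it was lower at 21 °C. For EXPA8 the difference at 33 °C was 0.60 with a limma adjusted p of 0.182.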

How the results depend on the processing

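The count for EL against CT, 3672 genes, was 3708 with a pseudocount of 0.1, 3541 with no filter, 3877 with size factors, 3461 with the replicate block and 1603 with the 6 libraries fitted alone. Leaving out 1 library gave 2501 to 3566, and 761 to 1070 for genes of at least 2-fold change. With only the compared libraries the count was 1181 for EL+HS against HS, 2649 for S+EL against S (2477 as reported), 383 for S+EL+HS against S+HS (568 as reported), 1169 for EL against CT in libraries labelled rap2.3, 672 for the light by heat interaction and 10 for light by salt. The light by salt count of 51 was also 31 with a pseudocount of 0.1, 22 with no filter and 16 with the replicate block, and 0 to 59 with 1 library left out. Leaving out 1 library gave 1725 to 4879 for EL+HS against HS, 1310 to 2567 for S+EL against S, 231 to 464 for S+EL+HS against S+HS, 1745 to 3770 in libraries labelled rap2.3, 1112 to 2450 for light by heat and 0 to 6 for genotype by light. The cause of these shifts was not tested. Of 264 values of named genes under the alternatives, 242 kept direction and call, 22 lost the call and 0 changed sign. The named genes were chosen for non-overlapping groups, so leaving out a library could not change their sign. The absence of sign changes is therefore no check of stability. Equal replicate numbers did not pair wild-type CT with wild-type EL libraries: deviations correlated at -0.063, 0.001 and -0.077. Depth could not be read from FPKM, so counting error at low values is unknown.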

Other observations

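The genes ranked just after the named ones, chosen after their values were seen, held further chaperone partners. Hop3, a co-chaperone that links HSP70 and HSP90, went from 6.63, 8.25 and 8.46 FPKM in CT to 72.6, 126 and 338 FPKM in EL, a difference of 4.07 ± 0.45 on the log2(FPKM + 1) scale. EGY3, a plastid membrane protein of a protease-like family, went from 3.99, 2.52 and 3.0 FPKM to 37.3, 89.7 and 221 FPKM (4.47 ± 0.56), with EL replicate 3 again highest. PS2, annotated as inorganic pyrophosphatase 1, had the other order, at 26.9, 23.9 and 11.4 FPKM against 0.355, 0.405 and 0.666 FPKM in CT (3.80 ± 0.36). The non-coding RNA AT2G04805 was listed at 0 in CT replicates 1 and 3 and at 13.3 FPKM in replicate 2, and stood at 47.7, 27.1 and 28.5 FPKM in EL. In libraries labelled rap2.3 its difference was -1.54 and did not pass the test.

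Among the next decreases, PMT6, annotated as a major facilitator transporter, went from 65.4, 42.4 and 57.0 FPKM to 20.8, 20.9 and 13.8 FPKM (-1.52 ± 0.18). AT5G02760, a protein phosphatase 2C gene, went from 20.05, 12.9 and 17.9 FPKM to 3.42, 6.61 and 5.70 FPKM (-1.54 ± 0.25). GER1, a germin-like protein gene, went from 1085, 1081 and 1040.5 FPKM to 584, 306 and 274 FPKM, but shares 92.2% of its exon length with a gene on the other strand.

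Transcripts of the organelle genomes were called less often than all tested genes (17.7%), at 4.84% of plastid and 7.89% of mitochondrial loci. Of 62 tested plastid loci 1 rose and 2 fell, and of 76 tested mitochondrial loci 6 rose and none fell, a count that was 1 without CT replicate 1. Whether the libraries were selected for polyadenylated RNA is not given in the sources used here.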
